A study of Homo sapiens with 12 samples.

Results

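The genes of the CCT chaperonin, the ring-shaped complex of the cytosol also called TRiC, were followed in polyadenylated RNA of HEK293T cells, a human embryonic kidney line. The 8 genes were taken by name and not by any measured value: TCP1, CCT2, CCT3, CCT4, CCT5, CCT6A, CCT7 and CCT8, which encode the alpha, beta, gamma, delta, epsilon, zeta, eta and theta subunits. They are 8 of the 58735 genes in the deposited tables, and all 8 passed the filter on low counts that left 17729 genes for testing. The RNA-Seq experiment held 4 groups of 3 libraries. Cells of the DMSO group had vehicle alone. For the CEP libraries, cells were exposed for 1 h to 25 µM of AHL-Pu-1, an electrophilic purine that carries a click handle. The 4SU libraries are from cells grown for 16 h with 100 µM 4-thiouridine, which is built into RNA in place of uridine and can be crosslinked by UV light to bound protein. CEP+4SU libraries had both. All cells were wild-type HEK293T, and the labels carry the same treatment text, UV irradiation included, for all 12 libraries without saying whether cells without 4SU were irradiated. The labels give the CEP dose as mM in that text, whereas the study's methods give µM.

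CCT is built from a pair of stacked rings, each holding every subunit, and closes over its substrate when ATP is bound and hydrolyzed. Actins and the alpha- and beta-tubulins are its best known clients, and prefoldin hands them over while they are still unfolded. Each subunit differs from the others mainly in the surface that contacts substrate, and a working ring needs all of them. In growing cells the subunits are abundant household proteins, and heat shock factor is known to act on several of their genes.

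Total counts on genes were 16569114 to 24644734 per library, and the 8 subunits together held 90267 to 132654 of them, 0.514% to 0.566%. CEP replicate 2 and CEP+4SU replicate 2 stood apart, with a count above 0 in 22230 and 22627 genes against 24376 to 25869 in the other 10 libraries. For each comparison that holds these libraries, the leading subunit values are also given without both. Of the markers known for this line, 7 of 7 had counts in every library, and their summed level was 158 to 172 FPKM (fragments per kilobase of gene, scaled to a common number of counted fragments). The 12 markers of melanoma, blood, fibroblast and liver cells summed to 3.81 to 6.17 FPKM, and TYR and CD3E were at 0 in all 12 libraries. The libraries are of whole cultures, so fewer cells expressing a gene and less RNA per cell cannot be told apart.

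The 8 genes lie on 7 chromosomes. In the coordinates of the deposited tables, which are those of GENCODE 29 on GRCh38, TCP1 is at chr6:159778498-159789749, CCT2 at chr12:69585334-69601570, CCT3 at chr1:156308968-156367873, CCT4 at chr2:61868089-61888804, CCT5 at chr5:10249921-10266412, CCT6A at chr7:56051630-56063989, CCT7 at chr2:73233420-73253021 and CCT8 at chr21:29055805-29073797. TCP1, CCT3, CCT4 and CCT8 are on the minus strand and the other 4 on the plus strand. Counts were made over the exons of whole genes, so isoforms of a subunit were not separated. The sequences before 4 of the genes are shown, since these are the subunits whose 95% interval for CEP or 4SU, each averaged over the other compound, did not include 0 and for which a window was at hand. Each is the part of the RefSeq promoter window (250 bases before to 50 after the RefSeq start) that lies before the exons downstream of that start and outside every annotated exon, read 5′ to 3′ on the strand of the gene, build GRCh38.p14. The stretch of CCT7 lies within the span of longer transcripts of that gene. Capitals mark matches, on either strand, to the letters CCAAT, to GGGCGG and to CGGAAG.
TCP1, chr6:159789750-159789811, minus strand: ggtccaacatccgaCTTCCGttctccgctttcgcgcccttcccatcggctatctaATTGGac
CCT2, chr12:69585209-69585333, plus strand: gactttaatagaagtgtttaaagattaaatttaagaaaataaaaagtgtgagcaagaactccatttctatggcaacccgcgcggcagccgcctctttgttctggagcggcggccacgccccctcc
CCT7, chr2:73234058-73234235, plus strand: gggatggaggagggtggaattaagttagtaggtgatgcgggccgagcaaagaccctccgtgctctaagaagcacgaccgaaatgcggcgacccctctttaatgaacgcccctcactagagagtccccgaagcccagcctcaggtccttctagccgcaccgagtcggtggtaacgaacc
CCT8, chr21:29073798-29073898, minus strand: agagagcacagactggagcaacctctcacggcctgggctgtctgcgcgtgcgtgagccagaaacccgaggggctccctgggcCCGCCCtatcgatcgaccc

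The TCP1 stretch is the whole gap of 62 bases between TCP1 and MRPL18, which is read in the other direction, and it holds a CCAAT box and a CGGAAG site. The CCT8 stretch holds a GGGCGG match, and those of CCT2 and CCT7 hold no match to the letters searched. Over whole windows of 300 bases, CGGAAG, a core bound by ETS factors, was present in 5 of the 7 subunit windows (TCP1, CCT2, CCT5, CCT7 and CCT8) and in 19.5% of 35116 windows of all genes. CCAAT was present in 4 of 7 (34.6% of all windows) and GGGCGG, the GC box, in 5 of 7 (45% of all windows). The heat shock element units GAANNTTC and TTCNNGAA were searched too. The first was found in the TCP1 window alone (6.77% of all windows), and the second in 0 of 7 (7.74% of all windows). The letter matches are a description and show no binding. No sequence is shown for CCT6A, which had no window, or for CCT3, CCT4 and CCT5, whose intervals included 0. CCT3 also had under 50 free bases, and the RefSeq start of CCT5 lies inside the annotated gene.

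In FPKM, the highest mean level among the subunits was 2.60 times the lowest in DMSO, 2.42 times in CEP, 2.70 times in 4SU and 2.55 times in CEP+4SU libraries. In DMSO libraries CCT3 was highest, with 262 ± 10.9 FPKM (SD, n = 3, as for all levels of groups below), followed by CCT7 with 228 ± 10.9, CCT4 with 206 ± 6.02 and CCT8 with 165 ± 4.24. CCT6A had 152 ± 5.88 FPKM, TCP1 138 ± 6.30, CCT2 111 ± 3.55 and CCT5 101 ± 5.44. In this group no library of a subunit overlapped the libraries of its neighbor in the order. The order was the same in CEP and 4SU libraries, though CCT7 and CCT4 overlapped in both, and CCT8 and CCT6A as well as CCT6A and TCP1 overlapped in 4SU libraries. In CEP+4SU libraries the mean of CCT4, 217 ± 12.7 FPKM, lay above that of CCT7, 202 ± 9.47, and these overlapped. So did CCT8 and CCT6A, as well as CCT6A and TCP1, in that group. The order also depends on the length used for FPKM. The deposited lengths join all exons of a gene, 5839 bases for CCT5 and 4929 for TCP1. With the length of the principal transcript, 3675 and 2499 bases, CCT3 stayed highest and CCT5 lowest in all 4 groups, and TCP1 came just after CCT8, with overlapping libraries. CCT4, with a deposited length of 2830 bases and a principal length of 2520, then came below both CCT8 and TCP1 in all 4 groups. The highest mean was then 2.84 to 3.18 times the lowest.

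**Figure D1:**
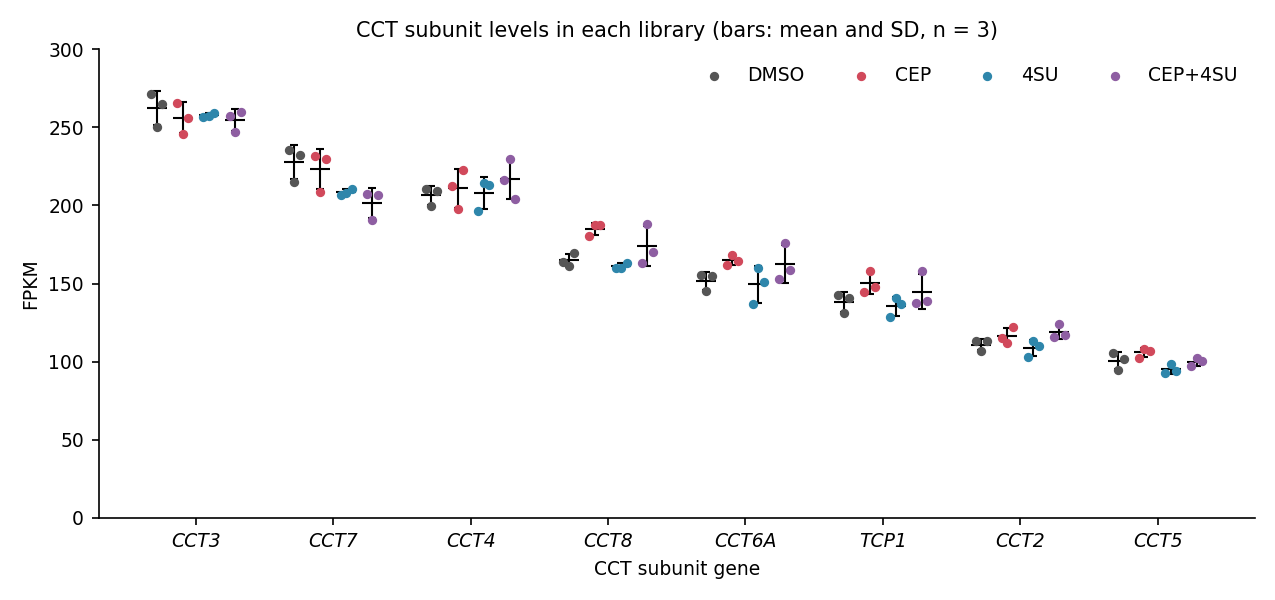
FPKM of each CCT subunit gene in the 12 libraries, with genes ordered by their DMSO mean; points are libraries, colors are groups and bars give mean and SD of 3. CCT3 stands highest near 262 FPKM and CCT5 lowest near 101 FPKM in DMSO, the 3 CEP points of CCT8 lie above its 3 DMSO points, and the mean of CCT7 is lowest in CEP+4SU.

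Across libraries these levels moved little. The coefficient of variation of normalized CPM (counts scaled to TMM library sizes) over the 12 libraries was 2.99% to 6.89% among the subunits, with a median of 5.96%, against a median of 8.23% for 323 tested genes averaging 400 CPM or more and of 14.2% for all tested genes. Of the summed FPKM of the 8 genes, CCT3 took 18.8% on average over the 12 libraries and CCT5 7.34%. The sum over the 8 genes was 1363 ± 51.5 FPKM in the DMSO group, 1412 ± 24.9 in CEP, 1324 ± 37.8 in 4SU and 1373 ± 37.3 in CEP+4SU libraries.

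The subunits did not all vary together. Over the 12 libraries, and as a description of libraries that share treatments, depth and base composition, log2 CPM of TCP1 and CCT6A had a Pearson r of 0.95, TCP1 and CCT8 of 0.88, and CCT2 and CCT6A of 0.86. CCT3 followed CCT7 (r = 0.76) but neither TCP1 (r = -0.25) nor CCT8 (r = -0.25). By the GC content of the longest transcript, CCT3 and CCT7 stand highest, with 51.2% and 51.3%, and the other 6 lie between 43.1% and 45.9%.

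To ask what the probe itself did to the subunit mRNAs, CEP was compared with DMSO and, with all 12 libraries, averaged over the presence of 4SU. No subunit passed the threshold, an adjusted p of 0.05 by edgeR's quasi-likelihood test over all tested genes. For CEP against DMSO 0 of 8 were called and 0.0564% of all tested genes (10 genes). For CEP averaged over 4SU 0 of 8 were called and 0.276% of all tested genes (49 genes). At an unadjusted p under 0.05 the subunits numbered 1 and 4, that is 12.5% and 50% of the 8, against 18.5% and 24.3% of all tested genes. DESeq2 called 0 and 1 of the 8, and limma on log2 FPKM 0 in both. The median log2 fold change averaged over 4SU was 0.09 for the 8 subunits and -0.0065 for all tested genes, and 6 of 8 were positive. Without both libraries that stood apart, the median was 0.058, 8 of 8 were positive and 2 of 8 had an unadjusted p under 0.05. For CEP against DMSO the median was 0.074 with these libraries and 0.086 without, and CCT8 was at 0.16 without them.

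CCT8, the theta subunit, had the largest difference. Its normalized level was 551, 541 and 573 CPM in the DMSO libraries and 610, 631 and 631 CPM in the CEP libraries, and in 4SU libraries it was 536, 535 and 546 CPM against 549, 633 and 574 CPM with both. Each set of 3 with CEP lay above its set of 3 without, with no overlap, though with 4SU the gap was narrow (546 against 549 CPM). The share of all tested genes whose libraries separate in this way is not given here. For CCT8 and the subunits below, a lack of overlap is therefore a description and not a trait shown to be particular to them. The log2 fold change was 0.17 ± 0.066 (SE) against DMSO, with an adjusted p of 0.203 by edgeR, and 0.14 ± 0.047 averaged over 4SU, with an adjusted p of 0.09 and a 95% interval of 0.046 to 0.24. In fold terms the averaged difference was 1.11, with an interval of 1.03 to 1.18.

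The call on CCT8 turned with the method. DESeq2 gave 0.14 with an adjusted p of 0.0327, in a fit that called 15.6% of the genes to which it gave an adjusted p. With replicate number as a block in edgeR, the value was 0.14 and the adjusted p 0.0427, in a fit that called 12.8% of tested genes. Over the 26 alternatives, apart from the test against a minimum log2 fold change of 1, the adjusted p of CCT8 ran from 0.0327 to 0.646. Without CEP replicate 2 and CEP+4SU replicate 2 together the value was 0.11 (adjusted p 0.25 by edgeR), and DESeq2 and the block were not run on that set.

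CCT6A, the zeta subunit, stood at 611, 569 and 610 CPM in DMSO and at 640, 663 and 647 CPM with CEP, without overlap. In the 4SU background the values were 535, 626 and 591 CPM without and 601, 693 and 623 CPM with CEP, and these overlapped. The averaged log2 fold change of CCT6A was 0.13 ± 0.052, with an interval of 0.019 to 0.23 and an adjusted p of 0.146 by edgeR. TCP1, the alpha subunit, had 706, 649 and 701 CPM in DMSO and 722, 786 and 735 CPM with CEP, without overlap. In 4SU libraries TCP1 had 636, 695 and 674 CPM, and with both compounds 682, 785 and 691 CPM, which overlapped. The averaged value of TCP1 was 0.12 ± 0.051 (interval 0.0098 to 0.22, adjusted p 0.172 by edgeR). The CEP+4SU library at 785 CPM was replicate 2, which stood apart, and without both such libraries the TCP1 value was 0.06.

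CCT2, the beta subunit, overlapped between DMSO (491, 464 and 494 CPM) and CEP (503, 487 and 532 CPM) but not between 4SU (446, 490 and 476 CPM) and CEP+4SU (503, 541 and 510 CPM). Its averaged log2 fold change was 0.11 ± 0.047, with an adjusted p of 0.184 by edgeR. CCT5 gave 0.076 ± 0.046 and CCT4 0.052 ± 0.049, and both intervals included 0. For CCT3 and CCT7 the averaged values were -0.019 ± 0.043 and -0.032 ± 0.047, with intervals of -0.11 to 0.071 and -0.13 to 0.067. A missed threshold does not show that the groups were equal, and for these 8 genes the intervals of the averaged difference reach from -0.13 at the lowest to 0.24 at the highest.

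Base composition moved with these values. The 6 subunits with positive estimates have the AT-richer transcripts (43.1% to 45.9% GC), and CCT3 and CCT7 the GC-richer ones. When each library's trend on GC content was removed before the fit, the averaged CEP values of the 8 subunits ran from -0.014 to 0.055, with a median of 0.021 in place of 0.09, and 0 of 8 had an unadjusted p under 0.05. CCT8 was then at 0.052 ± 0.036 (adjusted p 0.643 by edgeR), TCP1 at 0.034, CCT6A at 0.051 and CCT2 at 0.055. Over all tested genes, the number at an unadjusted p under 0.05 fell from 4307 to 1877 with this removal. What set the GC trend was not tested.

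**Figure D2:**
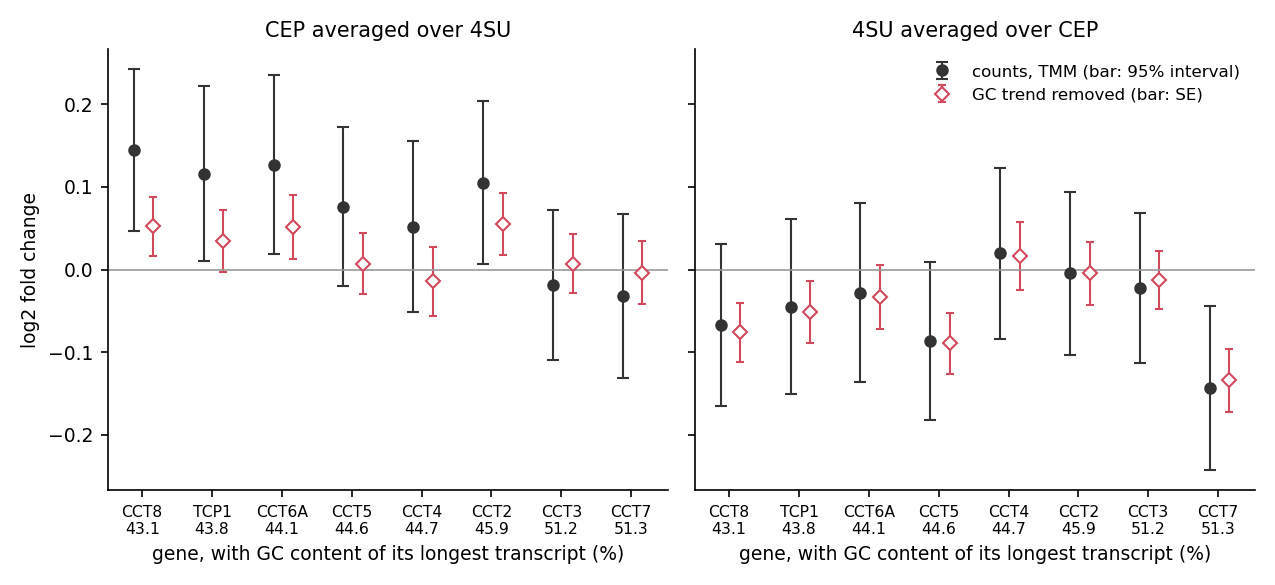
Log2 fold changes of the 8 CCT subunit genes for CEP (left) and 4SU (right), each averaged over the other compound, ordered by GC content of the longest transcript; filled circles with 95% intervals are from counts with TMM, open diamonds with SE from the fit with each library's GC trend removed. With CEP the circles pass from 0.14 for CCT8 to -0.032 for CCT7 and the diamonds lie between -0.014 and 0.055, whereas with 4SU circles and diamonds nearly coincide and CCT7 is lowest, at -0.14.

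The nucleoside was examined in the same way. No subunit was called for 4SU against DMSO (0 of 8, against 0.00564% of all tested genes, which is 1 gene) or for 4SU averaged over CEP (0 of 8, against 0.558%, which is 99 genes). At an unadjusted p under 0.05 the subunits numbered 0 and 1, against 6.49% and 12.6% of all tested genes, and DESeq2 and limma called 0 of 8 in both comparisons. With the GC trend removed, the subunits at an unadjusted p under 0.05 numbered 1 and 3 of 8, still with 0 called, while all tested genes at that p rose from 2236 to 3056 in the averaged comparison. CCT7, the eta subunit, had the lowest value. It measured 850, 778 and 844 CPM in DMSO and 745, 747 and 757 CPM with 4SU, and 841, 756 and 832 CPM with CEP and 749, 690 and 749 CPM with both. The 4SU libraries lay below the DMSO libraries and the CEP+4SU libraries below the CEP libraries, without overlap, although the highest 4SU value, 757 CPM, was level with the lowest CEP value, 756 CPM. As for CCT8, the share of all tested genes that separate in this way is not given. The averaged log2 fold change of CCT7 was -0.14 ± 0.047, with an interval of -0.24 to -0.045, an unadjusted p of 0.00674 and an adjusted p of 0.181 by edgeR.

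The value of CCT7 stayed negative in all 26 alternatives, from -0.16 to -0.099. It was -0.13 with the GC trend removed (adjusted p 0.0535 by edgeR) and -0.14 without both libraries that stood apart (0.105). With library size alone in place of TMM it was -0.099. The replicate block together with the GC removal gave -0.13 and an adjusted p of 0.0495, past the threshold, in a fit that called 3.72% of tested genes. Apart from the test against a minimum log2 fold change of 1, its adjusted p ran from 0.0495 to 0.388.

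The other 7 subunits had averaged 4SU values from -0.087 (CCT5) to 0.019 (CCT4), and all their intervals included 0. The signs of these small values depend on scaling, since 1 of 8 subunits was positive with TMM, 4 of 8 with library size alone and 0 of 8 without both libraries that stood apart, where the median was -0.051 in place of -0.037. For CCT5, the epsilon subunit, the levels were 620, 557 and 599 CPM in DMSO and 544, 578 and 551 CPM with 4SU, which overlapped. CCT3, the gamma subunit, had 1096, 1011 and 1076 CPM in DMSO and 1033, 1036 and 1042 CPM with 4SU, where the 4SU libraries fell inside the DMSO range.

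With both compounds, 0 of 8 subunits were called against DMSO, beside 1.64% of all tested genes (290 genes). CCT7 was at -0.18 ± 0.067, with an interval of -0.32 to -0.036 and an adjusted p of 0.142 by edgeR, and it alone had an unadjusted p under 0.05 (12.5% of the 8, against 21.4% of all tested genes). The other 7 lay between -0.041 (CCT3) and 0.1 (CCT2). The median of the 8 was 0.071. Without both libraries that stood apart it was 0.012, and CCT7 was at -0.14 with an adjusted p of 0.296 by edgeR. With the GC trend removed the median was -0.012. For the interaction of CEP with 4SU 0 of 8 subunits and 0% of all tested genes were called, and 0 of 8 and 2.63% of all tested genes had an unadjusted p under 0.05. Its values were -0.05 for CCT8 to 0.067 for CCT2, with intervals that reach from -0.25 to 0.27, so a difference of the CEP effect between cells with and without 4SU was not detectable at this number of libraries. Positive interaction values were found in 4 of 8 subunits with all libraries and in 1 of 8 without both that stood apart, where the range was -0.11 to 0.0052 and 0 of 8 were called. DESeq2 and limma called 0 subunits in the interaction and in each of the 3 comparisons with DMSO.

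The proportion of CCT7 to CCT8 mRNA differed between libraries. The FPKM of CCT7 divided by that of CCT8 was 1.34 to 1.44 in DMSO, 1.29 to 1.30 with 4SU, 1.11 to 1.28 with CEP and 1.01 to 1.27 with both. None of the 6 CEP-exposed libraries reached the values of the other 6. The lowest values, 1.11 and 1.01, were those of CEP replicate 2 and CEP+4SU replicate 2. This ratio was chosen after the values were seen and was not tested, and the GC contents of the pair, 51.3% and 43.1%, differ as described above.

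Among partners that deliver substrate to the ring, prefoldin subunits and phosducin-like co-chaperones, 0 of 9 were called in any of the 6 comparisons. VBP1, a prefoldin subunit, had the smallest p for averaged CEP. Its log2 fold change was 0.16 ± 0.054 and an adjusted p of 0.0934 by edgeR. The median of the 9 was 0.022, beside -0.0065 for all tested genes, and 3 of 9 (33.3%) had an unadjusted p under 0.05, against 24.3% of all tested genes. DESeq2 called VBP1 alone of the 9 for CEP averaged over 4SU, in the fit that called 15.6% of genes. For 4SU averaged over CEP the smallest p was that of PFDN4, at -0.09 with an adjusted p of 0.66. Of the other chaperonins, 0 of 6 tested genes were called by edgeR in any comparison or by DESeq2 for CEP averaged over 4SU, where 2 of 6 (33.3%) had an unadjusted p under 0.05, and CCT8L2 had no count in any library. HSPD1, the mitochondrial chaperonin, was at 0.12 ± 0.046 (adjusted p 0.135 by edgeR) for CEP. BBS10 had the smallest p for 4SU averaged over CEP, at 0.14 with an adjusted p of 0.5, and MKKS for CEP+4SU against DMSO, at 0.25 with an adjusted p of 0.222.

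The cytosolic heat shock chaperones, with their transcription factor HSF1, gave 0 of 12 calls in each comparison with edgeR, with 6 of 12 (50%) at an unadjusted p under 0.05 for CEP averaged over 4SU, against 24.3% of all tested genes. In that comparison 8 of 12 estimates were positive and 4 negative. HSPA8, the constitutive HSP70 that passes clients to the ring, had 1945 ± 144 CPM in DMSO and 2305 ± 159 CPM with CEP, and its averaged value was 0.21 ± 0.049 (adjusted p 0.0589 by edgeR). DESeq2 called 5 of the 12 higher for CEP averaged over 4SU (DNAJA1, HSP90AA1, HSPA4, HSPA8 and HSPH1), in the fit that called 15.6% of genes, and the replicate block called the same 5 higher and 1 of 12 lower. HSPB1, a small heat shock protein, had the largest estimate in size, at -0.35 ± 0.11 (interval -0.58 to -0.12, adjusted p 0.0884 by edgeR), and is named after its value was seen. With the GC trend removed, 0 of 12 were called for CEP averaged over 4SU, HSPA1B was called higher in CEP+4SU, and 2 of 12 were called for 4SU averaged over CEP, HSPA1B higher and 1 lower. In that order, this fit called 0.327%, 1.26% and 3.41% of all tested genes. For 4SU averaged over CEP the smallest p was that of HSP90AB1, at -0.14 with an adjusted p of 0.135.

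Of the client genes, 5 of 20 were called for CEP averaged over 4SU, beside 0.276% of all tested genes. For CEP+4SU against DMSO 10 of 20 were called (1.64% of all tested genes), for CEP against DMSO 3 of 20 (0.0564%), for 4SU against DMSO 0 of 20 (0.00564%) and for 4SU averaged over CEP 1 of 20 (0.558%). All these calls were lower. The 5 were beta- and alpha-tubulins: TUBB4B fell by 0.73 ± 0.077 on the log2 scale, TUBB2A by 0.75 ± 0.095, TUBB by 0.53 ± 0.066, TUBB6 by 0.47 ± 0.082 and TUBA1C by 0.44 ± 0.074, with adjusted p of 5.75e-05 to 0.0155 by edgeR. TUBB4B went from 663 ± 44.1 CPM in DMSO to 372 ± 79.0 with CEP. Leaving out any single library kept the calls on TUBB4B, TUBB2A, TUBB and TUBA1C, and TUBB6 had an adjusted p of 0.0501 to 0.0558 without DMSO replicate 1, DMSO replicate 3, 4SU replicate 1 or CEP+4SU replicate 3. Over all 4 lists the 5 calls became 20 without CEP replicate 1, 15 without CEP+4SU replicate 1 and 8 without both libraries that stood apart. Of the 20, PPP2R2A, HSP90AA1, HSPA8, HSPH1, PFDN4 and VBP1 were higher. Of the 15, PPP2R2A, HSP90AA1 and HSPA8 were higher, and all 8 were lower. The share of all tested genes called went from 0.276% to 11.8%, 6.05% and 0.337% in these fits. The 10 in CEP+4SU were 9 tubulins (TUBB, TUBB4B, TUBB2A, TUBB2B, TUBB4A, TUBA1A, TUBA1B, TUBA1C and TUBA4A) and ACTG1. The number of calls over all 4 lists was 10 in this comparison, 4 without DMSO replicate 2, 3 without DMSO replicate 1, DMSO replicate 3, CEP+4SU replicate 2 or CEP+4SU replicate 3, and 6 without 4SU replicate 3. It was 9 without CEP replicate 3 or 4SU replicate 1 and 7 without 4SU replicate 2. The share of all tested genes called fell too, from 1.64% to 0.126%, 0.0767% and 0.0766% without DMSO replicates 1, 2 and 3. It was 0.176% and 0.0929% without CEP+4SU replicates 2 and 3, and 1.4% without CEP replicate 3. Without 4SU replicates 1, 2 and 3 it was 1.21%, 0.64% and 0.404%. The number of list calls rose to 13 without CEP replicate 1 or CEP replicate 2 and to 15 without CEP+4SU replicate 1. In these 3 fits 3.2%, 3.52% and 4.41% of all tested genes were called. ACTG1 was at -0.37 in CEP+4SU against DMSO with all libraries, and at -0.21 with the GC trend removed (adjusted p 0.146 by edgeR). Tubulin genes are close paralogs, so their separate values carry some uncertainty.

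For 4SU averaged over CEP the gene called was ACTG1, a cytoplasmic actin, which fell by 0.36 ± 0.062 on the log2 scale (adjusted p 0.0151 by edgeR). It had 3789 ± 266 CPM in DMSO and 2951 ± 185 with 4SU. Without DMSO replicate 1, 4SU replicate 2 or 4SU replicate 3 its adjusted p was 0.0652 to 0.0718 by edgeR, and 0 list genes were called, while 3 were called without CEP replicate 3. In these fits, in that order, 0.0382%, 0.0711%, 0.0765% and 0.508% of all tested genes were called, beside 0.558% with all libraries.

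Set beside the tubulin and actin genes among their clients, the subunit genes stayed within a narrow band. The other client genes of the list were not summed. Summed FPKM of the 11 alpha- and beta-tubulin genes was 943 to 1244 in the 6 libraries without CEP and 626 to 890 in the 6 with CEP, without overlap. Over the same sets the subunits summed to 1281 to 1399 and 1348 to 1436 FPKM, which overlapped. The actins summed to 1718 to 2195 FPKM in the 6 libraries without 4SU and 1358 to 1784 FPKM in the 6 with 4SU, which overlapped. These sums were not tested.

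**Figure D3:**
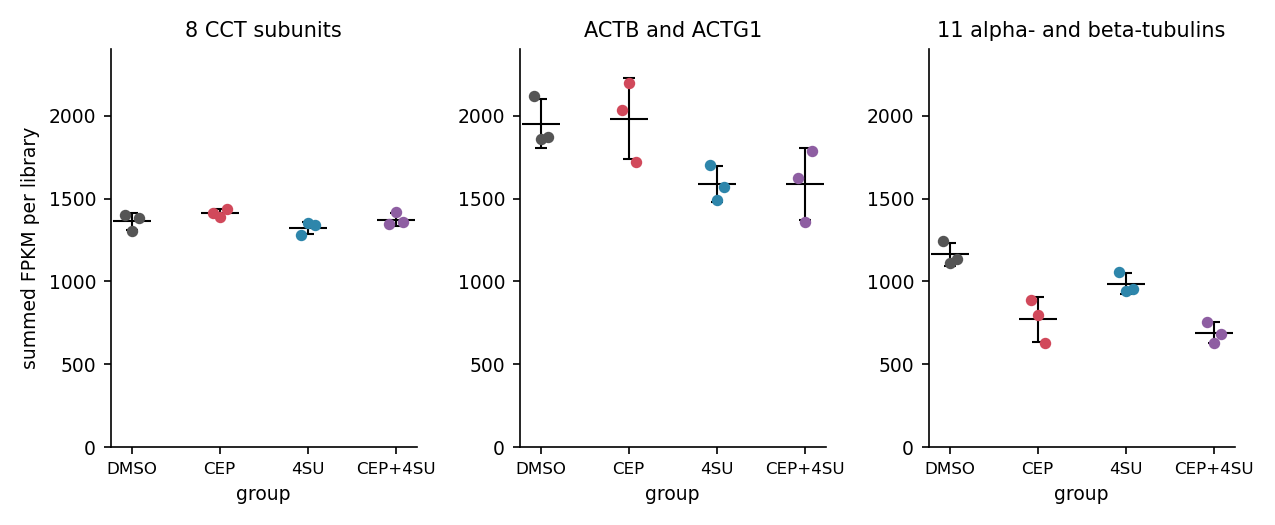
Summed FPKM per library of the 8 CCT subunits, of ACTB and ACTG1, and of 11 alpha- and beta-tubulin genes, in the 4 groups; points are libraries and bars give mean and SD of 3. The subunit sums sit between 1281 and 1436 FPKM in every group, the actin means are lower in both groups with 4SU, and the tubulin points with CEP all lie below those without.

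Genes that overlap or adjoin a subunit gene could share its reads, since the sources used here do not state whether counting used the strand. ACAT2 runs into the far end of TCP1 on the opposite strand and had 9.59% of the counts of TCP1, and MRPL18, which starts 63 bases from TCP1, had 11.7%. PSPH starts 26 bases from CCT6A and had 8.77% of its counts. FAM173B, which starts 24 bases from CCT5, had 2.87%, PRADC1 1.99% of CCT7 and COMMD1, whose span overlaps CCT4, 1.45%. The rest had under 1% of the counts of their subunit: TSACC (CCT3), AC107081.2 (CCT4), AC012640.4 (CCT5), AF129075.1 (CCT8), the small nucleolar RNA genes SNORA20, SNORA29, SNORA22B and SNORA15 inside TCP1 and CCT6A, and MIR3913-1 and MIR3913-2 beside CCT2. None of the 9 neighbors that were tested passed in any comparison. COMMD1 had the smallest p among them for CEP averaged over 4SU, at -0.28 ± 0.11 (adjusted p 0.142 by edgeR), opposite in sign to CCT4.

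The 13 annotated pseudogenes of the subunits held 3082 counts over all libraries, 0.239% of those of the subunits. CCT6P1 had the most, and the 4 pseudogenes of CCT6A held 1.65% as many counts as CCT6A. None of the 3 pseudogenes tested was called in any comparison.

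The genes whose pattern was most like the mean of the 8 subunits over the 12 libraries, by Pearson r of log2 CPM, were YWHAQ (0.94), a 14-3-3 protein, AGPAT5 (0.94), an acyltransferase of lipid synthesis, SYAP1 (0.93), DNAJA2 (0.92), an HSP40 co-chaperone, and HSPD1 (0.92). They were picked for this likeness among all tested genes, so the values are a description.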

How the data were processed

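Polyadenylated RNA of 12 HEK293T libraries was sequenced in the study. The authors aligned filtered reads to GRCh38 with HISAT2 2.0.5 and deposited whole-number counts per gene from featureCounts 1.5.0-p3, without normalization. The authors also deposited FPKM, per kilobase of joined exons, with library sizes that were 0.981 to 1.03 times the total count. A table of group means was not used. Whether counting used the strand is not given in the sources used here. The DESeq2 and GATK 4.1.1.0 named in the submitters' processing notes made no value used here.

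Counts were tested in R 4.3.3 with edgeR 4.0.16: genes passing the low-count filter (minimum count 10, total 15; 17729 genes), TMM, and a quasi-likelihood fit of the 4 groups with 6 contrasts. Adjusted p-values are Benjamini-Hochberg over all tested genes, with a threshold of 0.05. Each SE is the log2 fold change divided by the square root of F. The averaged contrasts take the mean of a compound's effect with and without the other. Groups came from sample titles. The study describes its replicates as 3 independent biological experiments. The fit was also run on simulated counts with known changes larger than the subunit differences, which does not measure its power for these.

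Alternatives used DESeq2 1.42.0, limma 3.58.1 on log2(FPKM + 1) and log2(FPKM + 0.1), other scalings and filters, removal of lowess trends on GC content or length, a replicate block and left-out libraries. The choice to describe this complex, the lists (48 genes) and the tests were made with earlier results of these data known, although the rule for its members uses gene names only. Named were all subunits, list genes called in a comparison or else that with the smallest p, genes overlapping a subunit or starting within 1000 bases of its start, the pseudogene with most counts, and the 5 genes most alike in pattern. The CCT7 to CCT8 ratio and the libraries standing apart were picked after seeing the data. Promoter sequences are from RefSeq.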

Additional observations from a re-analysis of the deposited data

How the results depend on the processing

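Of 1272 single-subunit values recomputed under up to 27 alternatives per comparison, 96 changed sign, none of them past the threshold in either fit, and 3 passed the threshold. The subunits called were then 1 for CEP averaged over 4SU with DESeq2 and 1 with the replicate block (CCT8 in both), and 1 for 4SU averaged over CEP with the replicate block and GC trend removed (CCT7). Leaving out each library in turn gave 0 to 0 subunits called in every comparison.

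List genes called by edgeR numbered 10 for CEP+4SU against DMSO, 5 for CEP averaged over 4SU and 1 for 4SU averaged over CEP. In that order they were 16, 16 and 9 without a low-count filter, where no gene-wise spread was fitted, and 3, 3 and 0 with limma on log2(FPKM + 1). The share of all tested genes called, 1.64%, 0.276% and 0.558% in the main fit, was 3.46%, 4.06% and 0.873% without the filter. With limma it was 0.118%, 0.107% and 0.164%. DESeq2 gave 19 for CEP and 4 for 4SU, in fits that called 15.6% and 2.6% of genes. Removing the GC trend gave 6 for 4SU, beside 3.41% of all tested genes. Without both libraries that stood apart, an alternative chosen after seeing the data, CEP gave 8, beside 0.337%. Leaving out 1 library at a time, also chosen afterwards, gave 3 to 15, 4 to 20 and 0 to 3. In these fits 0.0766% to 4.41%, 0.115% to 11.8% and 0.0382% to 0.687% of all tested genes were called. For CEP the count was 20 without CEP replicate 1 and 15 without CEP+4SU replicate 1. For 4SU it was 0 without DMSO replicate 1, 4SU replicate 2 or 4SU replicate 3, and 3 without CEP replicate 3. The cause was not tested.

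By principal transcript length, in CPM per kilobase, the subunit sums were 2325 (DMSO), 2413 (CEP), 2241 (4SU) and 2334 (CEP+4SU), since these lengths are shorter.

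Replicate numbers were not taken to pair the libraries, since nothing says what they share. Deviations of same-numbered libraries correlated at -0.047 to 0.14 over 18 pairs (median 0.011), with 1 above 0.1. Differently numbered libraries correlated at -0.16 to 0.055 over 36 pairs (median -0.0076), with 0 above 0.1. Whether same-numbered libraries share anything was not tested. For 7 of 12 libraries the best match had the same number. The replicate block raised calls over all tested genes from 10, 290 and 49 to 780, 1667 and 2269 for CEP, CEP+4SU and CEP averaged, and from 99 to 336 for 4SU averaged. List genes called with the block were 16 for CEP+4SU, 22 for CEP averaged and 5 for 4SU averaged.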
